A study of Canis lupus familiaris with 13 samples.

Results

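Cytotoxic granule and natural killer (NK) receptor genes were followed across 13 tumor biopsies from 3 companion dogs treated with IMAX, a nanoparticle of a polyethyleneimine derivative (2E′) that carries paclitaxel and a cyclic dinucleotide agonist of STING and is injected into the tumor. The members were chosen by gene symbol, with the late levels of GZMB known from the same counts, and all 10 listed symbols were present among the 43427 in the table. They were GZMA, GZMB, GZMK, PRF1, NKG7, CTSW, KLRD1, KLRK1, FASLG, and IFNG. All 10 were also among the 20118 genes with enough counts to be tested.

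Dog RV, a spayed female of mixed breed with a soft tissue sarcoma, gave 4 libraries. They came from the untreated mass, from 2 days past the second dose, and from 2 weeks past the third dose, when the injection site and tissue adjacent to it were sampled separately. Dog CL, an intact female Shih Tzu, had a mammary carcinoma at a cranial and at a caudal position, and each gave 3 libraries (pretreatment, then 1 week and 1 month past the second dose). Dog BM, a spayed female Great Pyrenees, gave 3 libraries from a carcinoma in the middle of the left 5th mammary gland, pretreatment, then 1 week and 3 weeks past the second dose. The 2-day and 1-week libraries are called early (n = 4) and the later ones late (n = 5), against 4 libraries before treatment. All were companion dogs with naturally occurring tumors, none was left untreated, and the last biopsies were taken when the tumors were removed, so treatment, time, and sampling cannot be told apart. Each tumor had 1 library per time point except RV late, and the tumors of CL share a host.

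Cytotoxic T cells and NK cells kill by releasing granules onto a target cell. Perforin opens the target membrane, and granzymes, which are serine proteases stored in the same granules, enter through it and start cell death. NK receptors of the killer lectin-like family, which recognize MHC class I or stress-induced ligands, set the threshold for release, while FAS ligand kills through a death receptor and interferon gamma alters the surrounding cells. In bulk tissue, fewer such cells and less RNA per cell cannot be told apart.

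Before treatment these genes were low in all 4 tumors. The 10 members together summed to 9.33 to 23.5 CPM (counts scaled to library size with TMM factors) before, 19.4 to 142 early, and 29.7 to 148 late. Library totals ran from 11622444 to 29931125 counts, so that 3 counts corresponded to between 0.0831 and 0.262 CPM. The epithelial markers EPCAM, KRT8, KRT18, KRT19, and CDH1 summed to 154 to 4532 CPM in the mammary tumors and to 24.9 to 105 CPM in the sarcoma, where VIM, the collagen genes, and other mesenchymal markers summed to 3161 to 34463 CPM. In the 3-week library of BM the epithelial markers were at their lowest for a mammary tumor (154 CPM) and the mesenchymal ones at their highest of all libraries (103831 CPM). In sections of the 2-day biopsy of RV, the paper did not definitively identify neoplastic cells. The 2-day library of RV also stood apart. Its epidermis markers (KRT1, KRT10, DSG1, LORICRIN) summed to 1230 CPM, against at most 77.0 CPM in the other 12 libraries. Its neutrophil markers (S100A8, S100A12, CSF3R, CXCR2, MPO) summed to 4276 CPM, against at most 1618 CPM elsewhere.

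**Figure D1:**
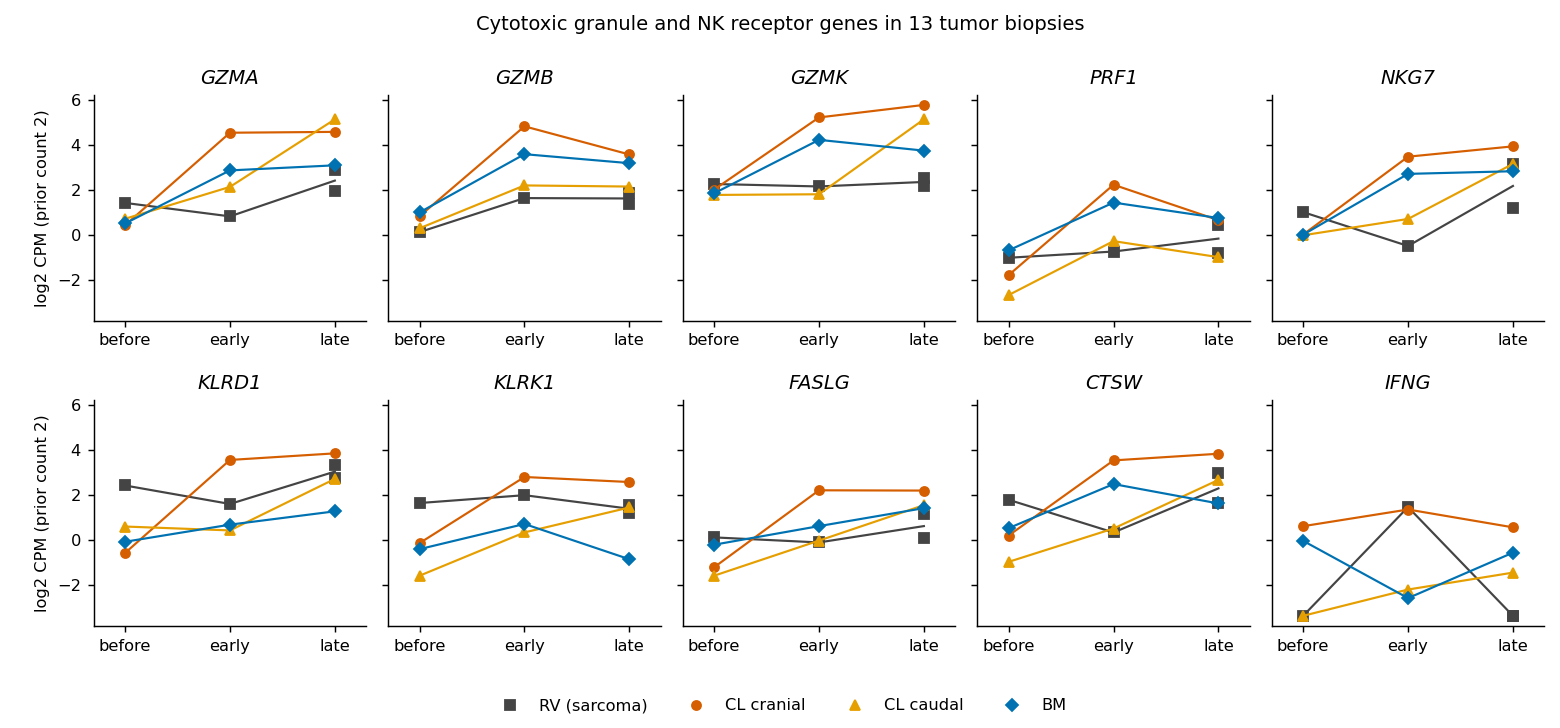
Level of each of the 10 genes (log2 CPM with a prior count of 2, vertical axis) before, early, and late after treatment (horizontal axis), with 1 symbol per library and a line through the mean of each tumor (RV has 2 late libraries). In CL cranial, the early level is above the level before treatment for all 10 genes, whereas in RV 6 of them are lower at 2 days.

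GZMB, which encodes the granzyme that cleaves caspases after aspartate, lies on chromosome 8 from 4634356 to 4637481 (UU_Cfam_GSD_1.0, the assembly behind CanFam4.0). Its level in RV was 0.9995 CPM before, 3.03 CPM at 2 days, and 3.53 and 2.54 CPM late at the injection and adjacent sites. In CL cranial it was 1.69, 28.4, and 11.9 CPM before, early, and late, in CL caudal 1.14, 4.52, and 4.37 CPM, and in BM 1.92, 11.9997, and 9.07 CPM. Every early and every late library was therefore above every library before treatment. Such a gap between early and before was seen for 2.71% of all genes tested, and GZMB was the only member with it. Between late and before, 0.293% of all genes and 3 members, GZMA, GZMB, and NKG7, showed it. The late gap of GZMB is the reason for which these genes were chosen and is given as a description only.

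Over the 4 tumors, the mean of GZMB was 1.44 ± 0.439 CPM before (SD, n = 4), 11.996 ± 11.6 CPM early (SD, n = 4), and 6.28 ± 4.01 CPM late (SD, n = 5). The fitted early change was 2.59 log2 (standard error 0.55, unadjusted p = 0.000545), with an adjusted p of 0.142 (edgeR quasi-likelihood, Benjamini-Hochberg over all genes). It stood at rank 76 of all 20118 genes by p, and it was higher in 4 of 4 tumors. The libraries before treatment are those of the late contrast in view when the genes were chosen. The early p and rank are therefore not independent of that choice. The late change was 2.08 log2 in the same fit.

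GZMA encodes a granzyme of tryptic specificity and is on chromosome 2 from 41653466 to 41660635. It had 2.60 CPM in RV before treatment, 1.68 CPM at 2 days, and 7.26 and 3.81 CPM late at the injection and adjacent sites. In CL cranial it went from 1.26 CPM to 23.3 CPM early and 23.9 CPM late, in CL caudal from 1.555 CPM to 4.32 and 35.3 CPM, and in BM from 1.33 CPM to 7.24 and 8.48 CPM. GZMA was thus lower at 2 days in RV, higher early in the 3 mammary tumors, and at its highest in the 1-month library of CL caudal. Its fitted early change was 1.81 log2 (standard error 0.84, adjusted p = 0.463 by edgeR), and its late change was 2.81 log2, the largest late change among the members.

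GZMK, also of tryptic specificity and typical of memory T cells, is on chromosome 4 from 61472808 to 61482765. It stayed between 4.38 and 5.77 CPM in all 4 libraries of RV. CL cranial had 3.97, 37.4, and 55.05 CPM before, early, and late, and in BM 3.53, 18.7, and 13.4 CPM. In CL caudal the early level of 3.42 CPM was close to the 3.35 CPM before treatment, with an order that turned under DESeq2's size factors, and only the 1-month library, at 35.3 CPM, stood out. The fitted early change was 1.37 log2 (standard error 0.77, adjusted p = 0.525 by edgeR), against 2.06 log2 late.

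PRF1, which encodes perforin, is on chromosome 4 from 22227730 to 22230277. Its counts were 6 in RV before, 9 at 2 days, and 19 and 8 late at the injection and adjacent sites. They were 4, 115, and 17 in CL cranial before, early, and late, 1, 18, and 6 in CL caudal, and 19, 74, and 38 in BM. In CL caudal this was a 12.3-fold early difference with an exact 95% counting interval from 1.94 to 511, and a 6.84-fold late difference whose interval, from 0.830 to 315, included no difference. PRF1 had the largest fitted early change of the members, 2.67 log2 (standard error 0.83, unadjusted p = 0.00776, adjusted p = 0.285 by edgeR), higher in 4 of 4 tumors, and 1.88 log2 late. In RV its early difference of 0.28 log2 rested on 6 and 9 counts.

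NKG7, a membrane protein of cytotoxic granules needed for their release, was at 1.93 CPM in RV before treatment and 0.617 CPM at 2 days, then 8.75 and 2.24 CPM late at the injection and adjacent sites. Its levels in CL cranial were 0.9198, 11.1, and 15.3 CPM before, early, and late, in CL caudal at 0.897, 1.55, and 8.87 CPM, and in BM at 0.917, 6.497, and 7.06 CPM. In each tumor the late mean was above the early value. CTSW, a cathepsin of cytotoxic lymphocytes, had its late level above the early one in 3 of 4 tumors, and in BM it was at 1.36, 5.57, and 3.02 CPM before, early, and late. It was at 3.40 CPM before and 1.18 CPM at 2 days in RV, and between 3.02 and 14.3 CPM in all late libraries, against 0.419 to 3.40 CPM before treatment. The fitted early changes were 1.55 log2 for NKG7 (standard error 0.90, adjusted p = 0.530 by edgeR) and 1.36 log2 for CTSW (standard error 0.89, adjusted p = 0.565 by edgeR).

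The receptor genes KLRD1 (CD94, which pairs with NKG2 chains to read MHC class I) and KLRK1 (NKG2D, which binds stress-induced ligands) lie near each other on chromosome 27, from 10445018 to 10450350 and from 10500576 to 10524567. KLRD1 was highest before treatment in RV, at 5.33 CPM against 0.581 to 1.44 CPM in the mammary tumors. It was at 2.97 CPM at 2 days in RV and at 6.78 and 9.98 CPM late, the only member with a higher level adjacent to the injection site than in it. In CL cranial it was at 11.8 CPM early and 14.5 CPM late, in CL caudal at 1.26 and 6.55 CPM, and in BM at 1.53 and 2.35 CPM. Its early change was the smallest of the members (0.76 log2, standard error 0.80, adjusted p = 0.700 by edgeR), and without CL cranial it was at -0.08 log2. KLRK1 was higher early in 4 of 4 tumors (1.44 log2, standard error 0.78, adjusted p = 0.519 by edgeR). Late, it was higher than before in both CL tumors and lower in RV and BM, at 2.92 and 2.24 CPM late against 3.07 CPM before in RV, and 0.462 CPM late against 0.667 CPM before in BM.

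FASLG, the gene of FAS ligand, had 15 counts in RV before, 15 at 2 days, and 32 and 16 late. In CL cranial it had 7, 114, and 52 counts before, early, and late, in CL caudal 4, 22, and 42, and in BM 28, 41, and 62. Its fitted changes were 1.36 log2 early (standard error 0.81, adjusted p = 0.540 by edgeR) and 2.06 log2 late. IFNG, the gene of interferon gamma, went its own way. RV had 0 counts before treatment, 48 at 2 days, and 0 at both late sites, at least 13.5-fold higher at 2 days when the library before treatment is set to its floor of 3 counts. CL cranial had 30, 62, and 16 counts before, early, and late, CL caudal 0, 3, and 4, and BM 32, 2, and 14, which for BM is a ratio of 0.0799 early against before (exact 95% counting interval 0.00927 to 0.313). The fitted early change of 2.23 log2 had a standard error of 1.91 (adjusted p = 0.635 by edgeR), and without RV it was at -0.29 log2.

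**Figure D2:**
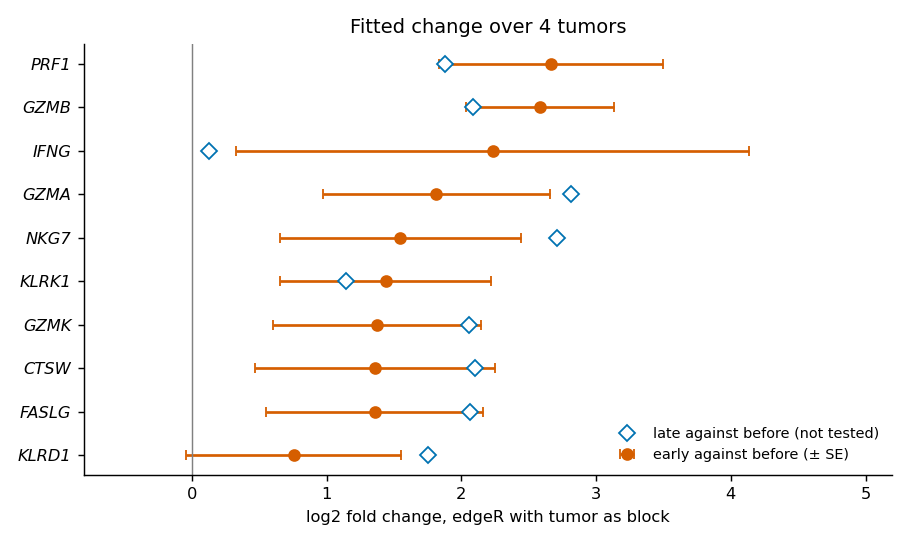
Fitted log2 fold change of each gene (horizontal axis) early against before treatment, with its standard error (filled circles, bars), and late against before treatment (open diamonds, shown without a test). PRF1 and GZMB have the largest early changes, at 2.67 and 2.59, and GZMA and NKG7 the largest late ones, at 2.81 and 2.71.

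By edgeR, 0 of the 10 members passed an adjusted p of 0.05 early, where 1 gene of all tested (0.00497%) did. At an unadjusted p under 0.05 there were 2 members, GZMB and PRF1, both higher, against 7.7% of all genes in that direction and 10.9% in either direction. DESeq2's Wald test called the same 2 members, with adjusted p-values of 5.92e-06 for GZMB and 0.0177 for PRF1, among 956 of 20118 genes called. Over all alternatives tried, the adjusted p ran from 5.92e-06 to 0.659 for GZMB and from 0.0177 to 0.811 for PRF1 by the test used in each. The median early change was 1.49 log2 over the members and 0.25 log2 over all genes, and the median late change was 2.06 log2 and -0.05 log2. Without CL cranial the early median was 0.85 log2.

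Counted by tumor, 3 of the 10 members (GZMB, PRF1, KLRK1) were higher early in all 4 tumors, where 10.8% of all genes were. Higher early in the 3 mammary tumors but lower in RV were 5 members, GZMA, GZMK, NKG7, FASLG, and CTSW, against 4.82% of all genes. Of these, only NKG7 and CTSW kept both directions under every scaling tried. Late, 8 members were higher in all 4 tumors, all except KLRK1 and IFNG, against 7.13% of all genes, and 0 were higher in the mammary tumors and lower in RV, against 7.07%. With only the adjacent late site of RV the late count was 5, against 5.66% of all genes. The late contrast was in view when these genes were chosen, so nothing is read from its count.

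The tumors differed in the size of the change. Over the 9 members other than IFNG, the median early difference was 3.46 log2 in CL cranial, 1.48 in CL caudal, 2.12 in BM, and -0.22 in RV. All 9 were higher early in CL cranial (50.5% of all genes), 8 in CL caudal (52.7%), 9 in BM (49.1%), and 3 in RV (54.5%). In RV, GZMA, GZMK, NKG7, KLRD1, FASLG, and CTSW were lower at 2 days. The scaling bears on that count, since with library size alone GZMA, GZMK, and FASLG were higher in RV, and the median of all genes there moved from 0.26 to 0.92 log2. NKG7, KLRD1, and CTSW were lower under every scaling tried. Late, the median difference over the 9 genes was 3.63 log2 in CL cranial, 3.13 in CL caudal, 1.63 in BM, and 0.62 in RV. Of all 10 members, 10 were higher late in CL caudal (48.1% of all genes) and 9 in CL cranial (46.6%), against 8 in BM (48%) and 8 in RV (51.1%).

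**Figure D3:**
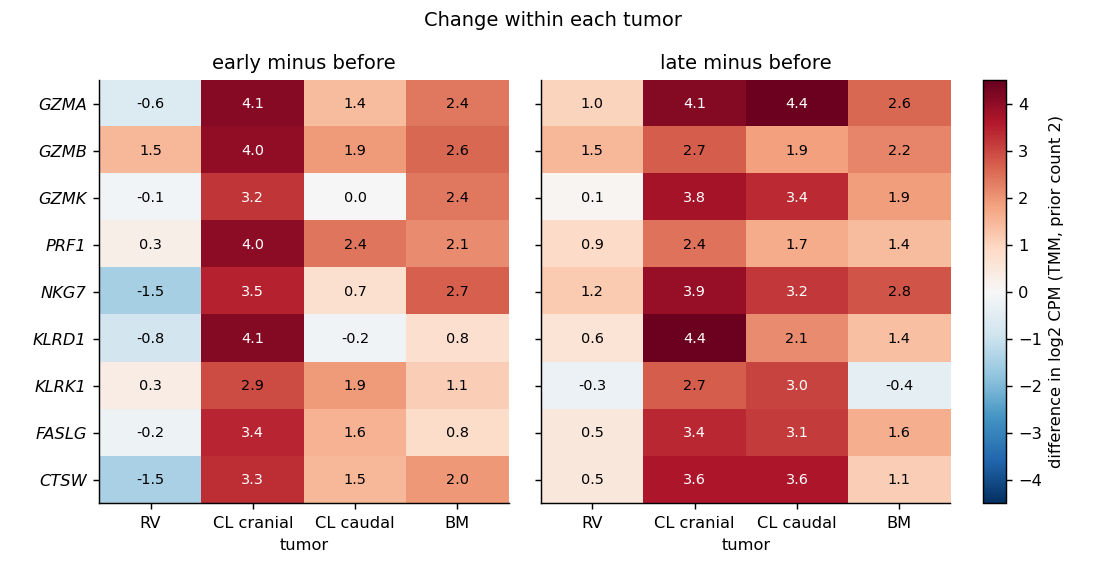
Difference in log2 CPM from the library before treatment of the same tumor (color and printed value) for 9 members, early (left) and late (right, mean of both sites for RV); IFNG is left out because RV and CL caudal had 0 counts before treatment. In RV 6 of the 9 genes are lower early and 1 late, and in CL cranial all 9 are higher at both times.

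Within RV, the late library from the injection site exceeded the adjacent one for 8 of the 10 members, with a median difference of 0.69 log2. NKG7 differed most, by 1.92 log2, and KLRD1 went the other way, by -0.55 log2. These sites were single libraries of the same mass. The share of all genes higher at the injection site was not computed, so nothing is read from the count of members.

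The course from early to late was not the same for all members. With the log2 levels of the late RV sites averaged, GZMB had a lower late than early level in 4 of 4 tumors, the only member to do so (17.4% of all genes), while GZMA, NKG7, and KLRD1 had a higher late level in 4 of 4 (12.9% of all genes). By tumor, the late level was below the early one for 5 of the 10 members in BM (53.1% of all genes) and 5 in CL cranial (56.8%), but for 3 in RV (53.3%) and 2 in CL caudal (53.2%). In RV and CL caudal the difference for GZMB was only -0.02 and -0.05 log2. In RV the late injection site, at 3.53 CPM, was above the 3.03 CPM at 2 days and the adjacent site, at 2.54 CPM, below it. With DESeq2's size factors that of CL caudal was above 0. With library size alone, GZMA was below its early level in CL cranial and BM, NKG7 in BM, and KLRD1 in CL cranial.

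The ratio of GZMB to GZMA reads within a library, which no scaling touches, was therefore taken, a choice made after the values were seen. In RV it was 0.385 before treatment, 1.80 at 2 days (exact 95% counting interval 1.13 to 2.91), and 0.486 (0.342 to 0.683) and 0.667 (0.440 to 1.001) late at the injection and adjacent sites. CL cranial had 1.35, 1.22 (1.09 to 1.36), and 0.496 (0.401 to 0.612) before, early, and late. In CL caudal it was 0.731, 1.05 (0.795 to 1.38), and 0.124 (0.0939 to 0.161), and in BM 1.44, 1.66 (1.39 to 1.98), and 1.07 (0.879 to 1.30). The late interval lay below the early interval in all 4 tumors. Only in RV did the early interval lie above the one before treatment, 0.197 to 0.714. These intervals hold only the counting error of reads that carried no molecular identifiers, and a ratio of reads does not compare the transcripts of both genes per length.

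**Figure D4:**
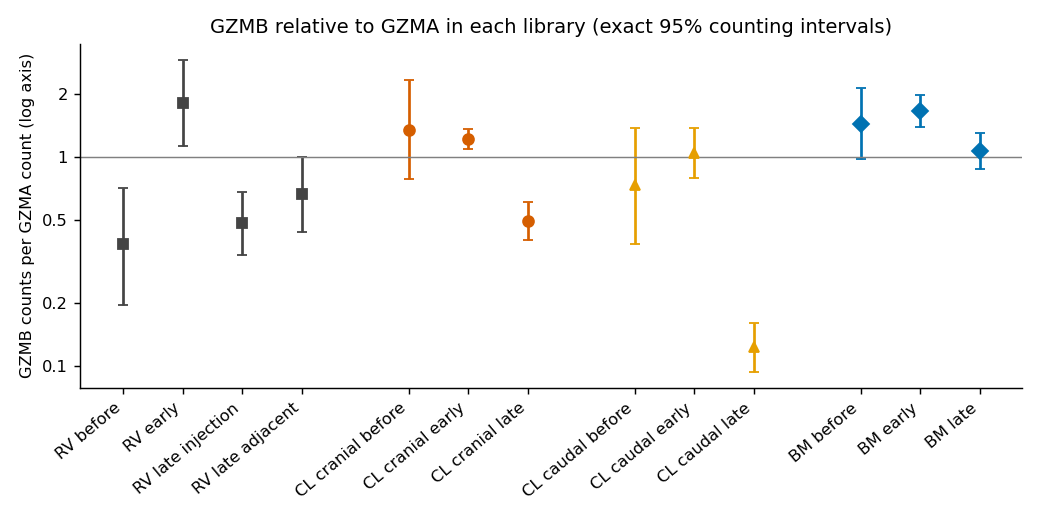
Reads of GZMB per read of GZMA in each of the 13 libraries (vertical log axis), with exact 95% counting intervals (bars) and libraries grouped by tumor (color). The late values, from 0.124 to 1.07, are below the early value of the same tumor, from 1.05 to 1.80.

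Of the 36 pairs among the 9 members other than IFNG, 14 had a read ratio that moved the same way from early to late in all 5 late libraries. GZMB was lower late relative to GZMA, NKG7, KLRD1, and FASLG, and PRF1 relative to GZMA, NKG7, and FASLG. KLRK1 was lower late relative to 6 genes, GZMA, GZMK, NKG7, KLRD1, FASLG, and CTSW. These pairs share genes and libraries, and both late libraries of RV were set against the same early one. The share among pairs of other genes was not computed, so the pairs are a description and nothing is read from their count.

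After the mean of each tumor was taken off, the 45 pairs of members correlated over the 13 libraries with a median Pearson r of 0.79, from -0.30 (NKG7 with IFNG) to 0.97 (GZMA with FASLG). IFNG was the member apart, with a mean r of -0.03 to the other 9. By the same measure, the genes most like GZMB were CYB561A3 (r = 0.96), PRF1 (r = 0.95), ADA (r = 0.94), PACC1 (r = 0.93), LCK (r = 0.92), and IL21R (r = 0.92). Next came LOC490629, the gene next to GZMB on chromosome 8 (r = 0.91), LOC119869063 (r = 0.91), LOC481634 (r = 0.90), and ACSS1 (r = 0.89). The genes most like the mean of the members were FASLG (r = 0.98), GZMA (r = 0.97), LCK (r = 0.96), LAG3 (r = 0.96), and LAT (r = 0.95), followed by LOC106557461, GZMK, LOC480788, CTSW, and LOC483396. The members are part of that mean, the libraries of a tumor are not independent, and these values carry no test.

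T cell markers were higher in many of the same libraries. The 10 markers (CD3D, CD3E, CD3G, CD2, CD5, CD6, LCK, CD8A, CD8B, CD4) summed to 20.8 to 52.8 CPM before, 43.3 to 566 CPM early, and 44.9 to 144 CPM late, and none was at 0 in all libraries. The high end came from the 2-day library of RV, where CD4 alone was at 516 CPM against 4.73 CPM before, while of the other 9 markers CD3D, CD3G, CD8A, and CD8B were lower than before and CD2, CD3E, CD5, CD6, and LCK higher, by 0.01 (LCK) to 2.09 log2 (CD5). Canine neutrophils also carry CD4. On the log2 scale, the mean of the members lay 1.05 to 1.95 below the mean of these markers before treatment, 1.28 to 1.59 below it early, and 0.40 to 0.87 below it late. The marker mean includes CD4, and these distances were not computed without it. The late contrast was in view when the members were chosen. Nothing is therefore read from the late distances, or from the late percentages given next. Relative to the CD3 genes, the summed CPM of the members went from 125% before to 169% early and 201% late in CL cranial. It was 108%, 220%, and 164% in CL caudal, 88.5%, 142%, and 236% in BM, and 193%, 172%, and then 224% and 290% at the late sites in RV. The part of T cell number in the changes of the members was not tested.

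**Figure D5:**
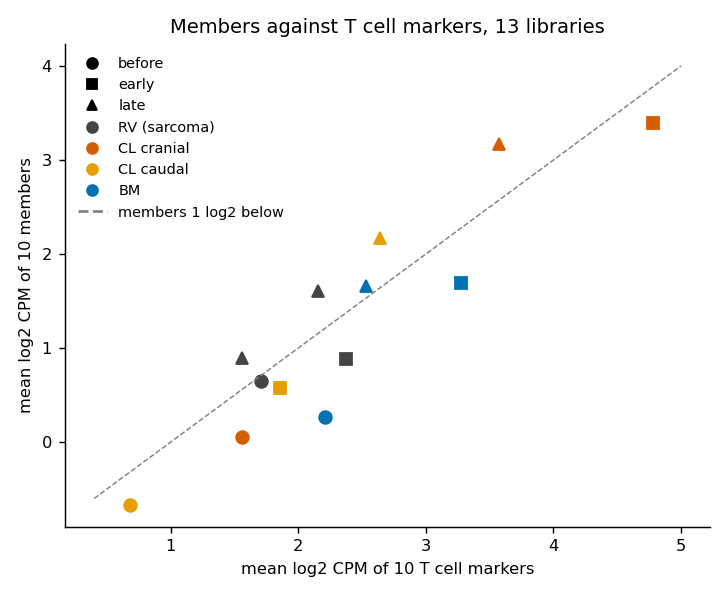
Mean log2 CPM of the 10 members (vertical axis) against that of 10 T cell markers (horizontal axis) in the 13 libraries, with color for the tumor and shape for the time; the dashed line marks members 1 log2 below the markers. All 5 late libraries lie above the line (0.40 to 0.87 below the markers) and all libraries before treatment and early lie under it. The line is a fixed guide, the markers include CD4, and the late contrast was in view when the members were chosen. Nothing is read from this split.

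NK cell markers gave a mixed picture. NCR1, the gene of the activating receptor NKp46, had 2 counts in RV before and 252 at 2 days, then 8 and 13 late. It had 1, 24, and 3 counts in CL cranial before, early, and late, 1, 8, and 1 in CL caudal, and 8, 42, and 1 in BM, so that the level was higher early in 4 of 4 tumors (3.85 log2, standard error 0.98, adjusted p = 0.192 by edgeR). KLRF1 and KLRB1 were each higher early in 2 of 4 tumors. NCAM1, the fourth marker, made up 159 of the 161 CPM of this list in CL caudal before treatment. The sum of the list was 11.9 to 161 CPM before, 8.91 to 99.3 CPM early, and 13.1 to 182 CPM late. Other cells can express GZMB, and the mast cell markers (KIT, CPA3, MS4A2, HDC) summed to 18.2 to 31.5 CPM before, 20.3 to 97.2 CPM early, and 17.1 to 58.3 CPM late. Those listed for plasmacytoid dendritic cells (TCF4, IL3RA, SPIB) summed to 43.9 to 290 CPM before, 78.7 to 134 CPM early, and 99.6 to 299.7 CPM late. TCF4 made up most of this sum, with a mean before treatment of 155 CPM against 0.678 CPM for IL3RA and 2.26 CPM for SPIB. Early, IL3RA and SPIB were each higher in 4 of 4 tumors and TCF4 in 2 of 4. The part of these cells was not tested.

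The wider machinery around the members was taken from 6 lists. By edgeR, 0 of their genes passed the adjusted threshold early, and the smallest adjusted p was 0.117, for FCER1G. At an unadjusted p under 0.05, where 7.7% of all genes were higher and 3.16% lower, 0 of the listed genes were lower and each list had some that were higher. The genes named next are those with the largest early change among the genes of a list that were higher in 4 of 4 tumors, whether or not they were under that p. For granule assembly and release, 5 of 12 genes were higher at that p, and the list had a median early change of 1.41 log2. Those named were UNC13D (3.59 log2), which primes granules for fusion, CST7 (2.03 log2), an inhibitor of cathepsins, and STXBP2 (1.42 log2), a partner of the fusion machinery. Among NK and T cell receptors and adaptors, 5 of 17 were higher at that p, with a list median of 1.49 log2. Those named were NCR1 (3.85 log2), SLAMF7 (3.74 log2), and the signaling adaptor FCER1G (3.31 log2). By tumor, the early medians of the granule and receptor lists were 0.94 and 1.98 log2 in RV, against -0.17 for the 10 members. In CL caudal they were -0.35 and -0.04, against 1.45. They were 1.69 and 2.56 in CL cranial, against 3.44, and 1.34 and 1.74 in BM, against 2.04. UNC13D, NCR1, SLAMF7, and FCER1G differed most in RV, by 4.88, 5.94, 5.76, and 4.68 log2. The cells behind these changes were not tested. Of the transcription factors, 4 of 10 were higher at that p, and those named were TBX21 (2.95 log2), the gene of T-bet, BATF (2.66 log2), and EOMES (2.44 log2), the relative of T-bet. TBX21 had 3, 52, 11, and 6 counts in the 4 libraries of RV in order of time, with the injection site first of the late pair, and 8, 190, and 12 counts in CL cranial.

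For the cytokines and receptors that activate cytotoxic cells, 6 of 12 genes were higher at an unadjusted p under 0.05 by edgeR, with a list median of 1.63 log2. IL2RG (3.45 log2), the shared chain of the receptors for several interleukins, IL18RAP (2.46 log2), and IL21R (1.82 log2) are named from this list, IL12RB1 had 2.56 log2 but was higher in 3 of 4 tumors, and IL2 and IL21 had too few counts to be tested. IL2RG and IL18RAP differed most in RV, by 4.92 and 4.52 log2, and IL21R in CL cranial, by 3.06 log2. Among death receptors and granzyme targets, 3 of 12 were higher at that p, with a list median of 0.43 log2. CASP8 (1.73 log2), TNFSF10 (1.62 log2), the gene of TRAIL, and FADD (0.99 log2) were higher in 4 of 4 tumors. FADD was not under that p (unadjusted p = 0.0980 by edgeR). In the interferon gamma response list, 9 of 18 were higher at that p, with a list median of 1.70 log2. Those named from this list were CXCL11 (2.84 log2, unadjusted p = 0.0504 by edgeR), CIITA (2.24 log2), and IRF1 (2.10 log2), while GBP5 had 3.11 log2 and was higher in 3 of 4. In RV and CL cranial, where the median differences of this list were 2.52 and 1.78 log2, IFNG had more counts early. In CL caudal the median difference was 0.075 log2, and IFNG had 0 counts before and 3 early. In BM the IFNG counts were lower early, and the median difference of this list was 1.005 log2.

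Late, the medians of these 6 lists were 0.32, 0.45, 0.71, 0.16, 0.27, and 0.12 log2 in the order given, against 2.06 log2 for the members. The late contrast was in view when the members were chosen, so nothing is read from this gap. Higher late in all 4 tumors were 4 of 12, 2 of 17, 4 of 10, 2 of 12, 0 of 12, and 1 of 18 genes, against 7.13% of all genes. In lists this short, the last 2 counts cannot be told apart from that share. GNLY, the gene of granulysin, another pore-forming granule protein, had a late change of 2.05 log2 and was higher late in 4 of 4 tumors, and EOMES had 1.68 log2, also in 4 of 4. TBX21 had 0.84 log2 and NCR1 0.45 log2 late, each higher in 3 of 4 tumors.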

How the data were processed

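RNA-seq reads from strand-specific libraries were aligned by the authors in Strand NGS, with CanFam4.0 as genome. The deposited values are raw counts, 1 row per gene symbol. The counting rule, annotation release, and handling of reads shared by paralogs are not given in the sources used here, so granzyme and killer lectin-like genes with close copies are uncertain. Groups came from the treatment labels. Counts were filtered with filterByExpr (minimum count 10), scaled by TMM, and fitted in edgeR 4.0.16 (R 4.3.3) by glmQLFit and glmQLFTest on all 13 libraries, with tumor and time as factors (7 residual degrees of freedom, common biological coefficient of variation 0.672). The threshold was a Benjamini-Hochberg adjusted p of 0.05. P-values measure the spread of the time changes between tumors of 3 dogs, and between the 2 late sites of RV. They count the cranial and caudal tumors of CL as separate. Within a tumor, differences are in log2 CPM with a prior count of 2. No libraries were copies of each other (lowest chi-square over degrees of freedom for a pair, 44.5). All 10 symbols matched RefSeq UU_Cfam_GSD_1.0, whose table gave coordinates but no transcript lengths or sequences, so levels were not compared between genes.

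The tumor is a block because its libraries come from the same mass. Deviations from the group means correlated within tumors with a mean r of 0.23 (before and early) and 0.57 (before and late), against -0.07 and -0.19 between tumors. The members and gene lists were chosen with earlier results of these data known, so late against before is described without a test. The early test shares its libraries before treatment and is not independent of that choice. The genes named were the 10 members, up to 3 genes per wider list with the largest early change in the same direction in 4 of 4 tumors, and the 10 genes most like GZMB or the members' mean by Pearson r. GNLY, IL2, IL21, IL12RB1, GBP5, and the marker genes given singly were named after their values were seen. GZMH, GZMM, KLRC1, FCGR3A, and FLG are not analysed here, and 1 listed gene is not reported here. Alternatives were DESeq2 1.42.0, its size factors, no filter, no block, only the time points compared, CL tumors or late RV sites summed, single late RV sites, a prior count of 0.5, library size alone, and each tumor left out. The models were tested on simulated data. Python 3.11.15 and matplotlib 3.10.9 were also used.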

Additional observations from a re-analysis of the deposited data

Results flagged for a closer look

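Among 30 groups of libraries (10 members at 3 times), 1 library stood apart from its group, where chance gives about 1.5. NKG7 before treatment was at 1.02 log2 CPM in RV, against -0.01 to 0.03 log2 CPM in the other 3 libraries.

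Early after treatment, 5 members moved in RV against the direction shared by the 3 mammary tumors, where 4.82% of all genes were higher in the mammary tumors and lower in RV. The difference from before treatment in RV was -0.60 log2 for GZMA (1.42 to 4.11 in the mammary tumors), -0.11 for GZMK (0.03 to 3.20), -1.50 for NKG7 (0.73 to 3.46), -0.22 for FASLG (0.83 to 3.42), and -1.45 for CTSW (1.48 to 3.34). With library size alone, GZMA, GZMK, and FASLG were higher in RV, by 0.07, 0.57, and 0.41 log2. With DESeq2's size factors, GZMK was lower in CL caudal (-0.07 log2). Only NKG7 and CTSW kept these directions under every scaling tried. The difference between the tumors was not tested, since RV is a single sarcoma sampled at 2 days and the mammary tumors were sampled at 1 week. The tissue sampled in RV also differed. Its mesenchymal markers summed to 30992.5 CPM before and 3161 CPM at 2 days, and its epidermis markers to 43.0 and 1230 CPM. Time, type of tumor, dog, and tissue sampled therefore cannot be told apart. Late after treatment, 0 members moved that way, against 7.07% of all genes.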

How the results depend on the processing

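The count of members called early was 0 in every alternative except DESeq2's Wald test, which called 2. The genes called among all tested were 1 by the fit reported, 956 by DESeq2's Wald test, 17 with no filter, and 0 with DESeq2's size factors, with no replicate block, with only the time points compared, with the CL tumors summed, and without each tumor in turn (0 to 0). Members under an unadjusted p of 0.05 by edgeR numbered 2, where 2184 of 20118 genes were in either direction. They numbered 5 with no replicate block (2324 of 20118 genes), 5 by DESeq2 (3954 of 20118), and 3 with no filter (2707 of 35274). With the CL tumors summed there was 1 (1608 of 21652). Without a tumor there were 1 to 8, the 8 without RV (1301 of 19975) and the 1 without CL cranial (1743 of 19673). The fit with the tumor as a block is the one reported, and without it the adjusted call of no member changed. Members higher early in all tumors numbered 3 (10.8% of all genes), but 6 with library size alone (12.3%), 4 without BM (20.9%), and 8 without RV (15.6%), so 3 to 8 without a tumor. Late there were 8, against 4.42% to 14.2% of all genes, under every alternative except the adjacent site of RV alone. That site gave 5, against 5.66% of all genes. The median early change ran from 0.85 (without CL cranial, where IFNG had too few counts) to 2.27 log2 (without RV), and the median late change from 1.65 to 2.64 log2 without a tumor. The early changes reversed only for KLRD1 without CL cranial (-0.0798 log2) and for IFNG without RV (-0.29 log2). The cause was not tested. Depth limits PRF1, FASLG, KLRK1, CTSW, and IFNG most, which had fewer than 10 counts in some libraries.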

Other observations

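LOC490629, the protein-coding gene next to GZMB on chromosome 8 (from 4614289 to 4620239 of UU_Cfam_GSD_1.0), was looked at after its likeness to GZMB was seen. It had 9, 159, and 35 counts in CL cranial before, early, and late, 9, 16, and 23 in CL caudal, 7, 74, and 55 in BM, and 4 and 7 in RV before and early, with 16 and 14 at the late injection and adjacent sites. It was higher after treatment in all 4 tumors at both times in raw counts, and whether reads are shared with GZMB was not tested.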
